A study of Mus musculus with 52 samples.

Results

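Gene expression was compared in the hippocampus of mice lacking the microRNA gene Mir146, labelled miR-146a KO (KO), and of wild-type mice (WT), at postnatal day 30 (P30). The 4 KO and 4 WT hippocampus libraries of that age were taken by their labels, out of 52 libraries in the series, which also holds the amygdala and frontal cortex at P30, the same regions at P60, and embryonic cortex. Each library is poly-A RNA of dissected tissue, and per the series' design text samples of a genotype came from mice with different mothers. Strain, age beyond the day, the design of the deleted allele and whether the deletion is present in all cells are not given in the labels. Values are the authors' normalised read counts per gene, whose library totals lie between 945861 and 1039135, with a scaling not given in the sources used here.

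miR-146a is a microRNA that NF-kB signalling induces and that in turn binds the messenger RNAs of Irak1 and Traf6, which carry signals from Toll-like and interleukin receptors to NF-kB. It is therefore known as a brake on innate immune signalling, and in brain it has been studied in microglia, astrocytes and neural progenitors. The hippocampus holds granule cells of the dentate gyrus, pyramidal neurons of the CA fields, interneurons and glia, and its oligodendrocytes lay down myelin during the postnatal weeks.

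The sequences below are shown because the search for candidate targets rests on them. The mature miR-146a-5p, as listed by RefSeq, lies on the minus strand of chromosome 11 (chr11:43374435-43374456, GRCm38), with the seed, bases 2 to 8, in capitals. Beneath it stand, from the GENCODE M21 annotation of GRCm38, matches to the seed in the 3′ untranslated regions of Traf6 (chromosome 2, plus strand), Irak1 (chromosome X, minus strand) and Gm2a (chromosome 11, plus strand), with the matching letters in capitals. For Gm2a 1 match is shown, and not every match. Gm2a is the only one of the 6 genes that passed the test, described next, to hold a match.
miR-146a-5p: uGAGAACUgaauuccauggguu
Traf6 site 1: ccgctctggtgttgAGTTCTCAtttagttg
Traf6 site 2: ccctggaaggcttaAGTTCTCAagtactcc
Traf6 site 3: gtactttggagtctAGTTCTCAgggagccc
Traf6 site 4: gactttgctactgcAGTTCTCAaacatgga
Irak1 site 1: gactcagaggtcaaAGTTCTCAtgcttgga
Irak1 site 2: ttctcatgcttggaAGTTCTCAtagtgtgc
Irak1 site 3: cagtggaccctgctGTTCTCAgaatgtga
Gm2a site: gtaccaccacgcctAGTTCTCttgatttg

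The libraries differed in ways that the genotype labels do not give. Recovered depth ran from 2933026 to 7425898 reads in KO and from 4425333 to 6879129 reads in WT, and KO replicate 3, the shallowest, had fewer than 0.5 times the reads of 5 of the other 7 libraries. By Xist and Y-linked genes, KO replicates 1 to 3 and WT replicate 2 were female and the others male, so genotype and sex were unevenly mixed. WT replicate 3 stood apart in genes of the choroid plexus, the epithelium that secretes cerebrospinal fluid. Aqp1, a water channel of that epithelium, had 0.40, 0.14, 0.34 and 2.61 in KO and 0.36, 0.44, 27.2 and 0.15 in WT. Markers of dentate granule cells checked the labelled tissue: of 10 tested, 9 in KO and 8 in WT were highest in the hippocampus among the regions sampled at P30, as were 4 in KO and 5 in WT of the 8 CA1 markers.

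Of 18985 genes tested, 6 (0.0316%) passed the threshold in the KO hippocampus, 1 higher (0.00527%) and 5 lower (0.0263%) than WT (limma, Benjamini-Hochberg adjusted p under 0.05, n = 4 KO and 4 WT). Pttg1, the gene of securin, which restrains sister chromatid separation until anaphase, and 9930111J21Rik2, of the immunity-related GTPase family, were nearly absent in KO. Lyrm7, an assembly factor of mitochondrial complex III, rose in KO. Gm2a, the lysosomal cofactor of ganglioside breakdown, Cdc42se2, a small effector of the GTPase Cdc42, and Elfn1, a postsynaptic adhesion protein of synapses onto interneurons, fell. At an unadjusted p under 0.05 there were 1815 genes, 9.56% of those tested.

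Pttg1 (ENSMUSG00000020415; chr11:43420250-43426251, GRCm38) had normalised read counts of 0.93, 0.55, 0.34 and 1.74 in the KO hippocampi, against 9.46, 10.1, 8.34 and 9.51 in the WT hippocampi. No KO library came near any WT library, and the WT mean was 10.5 times the KO mean (log2 fold change -2.50, SE 0.171, limma adjusted p = 1.48e-09). These values rest on 24 reads over the KO libraries and 224 over the WT libraries. A fold change here is on the log2(value + 1) scale, which understates the change of low genes.

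9930111J21Rik2 (ENSMUSG00000069892; chr11:49015874-49051242) had 0, 0.55, 0 and 0.58 in KO, against 8.03, 4.89, 6.84 and 4.61 in WT. The KO libraries together held 8 reads and the WT libraries 141, and the groups did not overlap (log2 fold change -2.47, SE 0.209, limma adjusted p = 8.92e-08). Its transcript is 99.0% identical over 3221 bases to that of 9930111J21Rik1 and 95.6% over 2961 bases to that of Gm5431. With Gm12185 it is 97.3% identical over 296 bases. Reads could be shared among these genes. 9930111J21Rik1 itself averaged 1.57 ± 0.132 in KO, against 1.49 ± 0.637 in WT (SD, n = 4 each). The gene also overlaps Olfr56 on the opposite strand, and whether counting used the strand is not given in the sources used here. Among the other immunity-related GTPases, interferon-inducible proteins of cell-autonomous defence, Tgtp1 averaged 0.155 ± 0.181 in KO, against 1.70 ± 1.15 in WT without passing the test (limma adjusted p = 0.271). Of the 8 tested genes of that list, 9930111J21Rik2 among them, 4 were higher and 4 lower in KO (median -0.001, and 0.125 without WT replicate 3).

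Lyrm7 (ENSMUSG00000020268; chr11:54826866-54860916) had 27.0, 16.9, 27.1 and 23.5 in KO, against 8.75, 8.14, 5.34 and 10.6 in WT. Every KO library lay above every WT library, and the KO mean was 2.88 times the WT mean (log2 fold change 1.43, SE 0.161, limma adjusted p = 2.1e-05). Its protein protects the Rieske iron-sulfur subunit before it is inserted into complex III. It was the only one of 15 tested genes for complex III and its assembly to pass, and the median log2 fold change of the 15 was -0.05, against -0.0038 over all genes tested.

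Gm2a (ENSMUSG00000000594; chr11:55098115-55113029) had 44.1, 50.4, 40.5 and 47.99 in KO, against 67.7, 70.0, 77.6 and 61.2 in WT. The KO mean of 45.7 ± 4.36 lay below the WT mean of 69.1 ± 6.76 (SD, n = 4 each) with no overlap (log2 fold change -0.59, SE 0.0777, limma adjusted p = 3.16e-04). The GM2 activator presents the ganglioside to hexosaminidase A in the lysosome. Of 12 genes of lysosomal sphingolipid breakdown it alone passed, with 5 higher, 7 lower and a median of -0.07, which was 0.04 without WT replicate 3.

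Cdc42se2 (ENSMUSG00000052298; chr11:54717456-54787675) had 56.8, 53.8, 60 and 62.3 in KO, against 90.5, 94.6, 74.6 and 97.5 in WT. All KO libraries lay below all WT libraries (log2 fold change -0.60, SE 0.0904, limma adjusted p = 0.00202). It overlaps the annotated genes Gm12229 on the same strand and Gm12227 on the opposite one. Cdc42 itself, the GTPase that organises the actin cytoskeleton and cell polarity, did not pass, and 7 of 9 tested genes of its list were lower in KO (median -0.09).

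Elfn1 (ENSMUSG00000048988; chr5:139907943-139974722) had 26.7, 24.4, 30.5 and 30.6 in KO, against 42.0, 47.2, 43.6 and 34.8 in WT. The groups did not overlap, with means of 28.04 ± 3.06 in KO and 41.9 ± 5.23 in WT (log2 fold change -0.56, SE 0.0979, limma adjusted p = 0.018). Its call was the least firm of the 6: leaving out KO replicate 1, or KO replicate 2, or WT replicate 2, ended it, with limma adjusted p up to 0.143. The call also ended with the replicate number as a block (limma adjusted p = 0.0954) and without WT replicates 1 and 3 together. In a fit of the 8 hippocampus libraries alone, only Pttg1 and 9930111J21Rik2 passed.

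**Figure D1:**
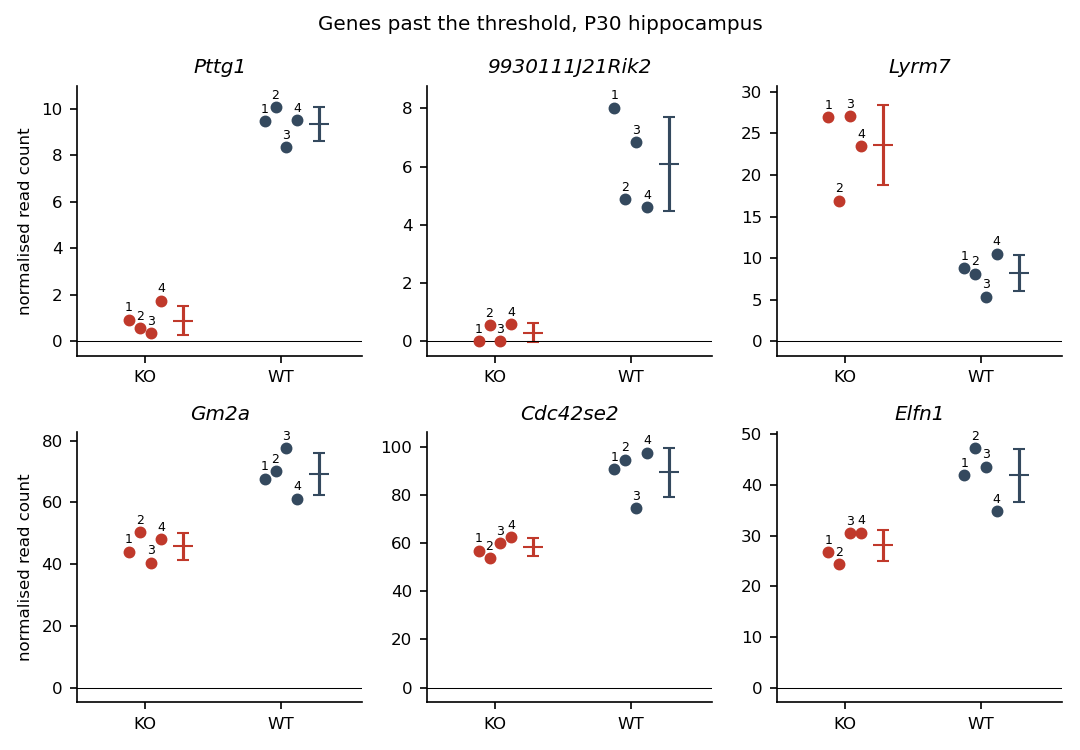
Normalised read counts (linear axis) of the 6 genes past the threshold in each KO and WT hippocampus library at P30; numbers give the replicate and bars the mean ± SD (n = 4 each). In every panel the 4 KO and the 4 WT points do not overlap; Lyrm7 is higher in KO and the other genes are lower.

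Elfn1 is known to recruit group III metabotropic glutamate receptors to the presynaptic side of excitatory synapses onto somatostatin interneurons. In the list of Elfn genes and metabotropic glutamate receptors, 9 were tested, 5 higher and 4 lower in KO (median 0.025, and -0.038 without WT replicate 3). An unadjusted p under 0.05 was found for 5, where 9.56% of all genes tested had one. Grm4, a group III receptor, had 8.50, 12.1, 8.91 and 7.83 in KO, against 12.7, 21.2, 16.5 and 12.2 in WT, without overlap and without passing the test (log2 fold change -0.67, SE 0.142, limma adjusted p = 0.0879). Grm7, the group III receptor best known as a partner of Elfn1, averaged 132 ± 8.22 in KO, against 114 ± 13.2 in WT (limma adjusted p = 0.35). Sst, the peptide of somatostatin interneurons, averaged 67.6 ± 19.6 in KO, against 100.01 ± 31.7 in WT (limma adjusted p = 0.52). The 18 interneuron markers divided evenly, 9 higher and 9 lower in KO, with a median of -0.01 (-0.18 without WT replicate 3), and WT replicate 3 had the lowest score of that list (-0.525, where the KO libraries ran from -0.145 to 0.132).

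Of the 6 genes past the threshold, 5 lie on chromosome 11, on the same side of Mir146, and Elfn1 lies on chromosome 5. Pttg1 starts 0.05 Mb from Mir146, 9930111J21Rik2 5.64 Mb, Cdc42se2 11.34 Mb, Lyrm7 11.45 Mb and Gm2a 11.72 Mb. Over all genes tested, KO and WT libraries did not overlap for 597, or 3.14%, with KO above WT for 287 (1.51%) and below for 310 (1.63%). On chromosome 11 within 15 Mb of Mir146 they did not overlap for 17 of 224 genes (7.59%), the 5 past the threshold among them, and on the other chromosomes for 545 of 17615 (3.09%). The share was uneven within that window, with 4 of 37 genes (10.8%) up to 5 Mb, 2 of 86 (2.33%) from 5 to 10 Mb and 11 of 101 (10.9%) from 10 to 15 Mb. Farther than 20 Mb from Mir146 on the same chromosome the share was 31 of 1031 (3.01%).

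Within 1 Mb of Mir146, 8 genes were tested and 3 did not overlap. Besides Pttg1 these were Slu7, a splicing factor, and Ttc1, a co-chaperone, and neither passed the test. Slu7 had 66.0, 67.4, 69.3 and 69.9 in KO, against 53.7, 58.2, 54.1 and 56.0 in WT (log2 fold change 0.29, SE 0.0594, limma adjusted p = 0.0739). Ttc1 averaged 31.2 ± 1.92 in KO, against 26.4 ± 1.94 in WT (limma adjusted p = 0.43). The GABA-A receptor subunit gene Gabrb2, on the other side of Mir146 at -0.75 Mb, averaged 116 ± 6.36 in KO, against 99.7 ± 21.4 in WT, with overlap. Between 10 and 15 Mb, Kif3a, a kinesin of cilia and axonal transport, averaged 121 ± 9.59 in KO, against 156 ± 12.2 in WT (log2 fold change -0.37, limma adjusted p = 0.0739). Slc36a1, a lysosomal amino acid transporter beside Gm2a, averaged 32.7 ± 3.31 in KO, against 47.7 ± 9.66 in WT (log2 fold change -0.52, limma adjusted p = 0.104).

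**Figure D2:**
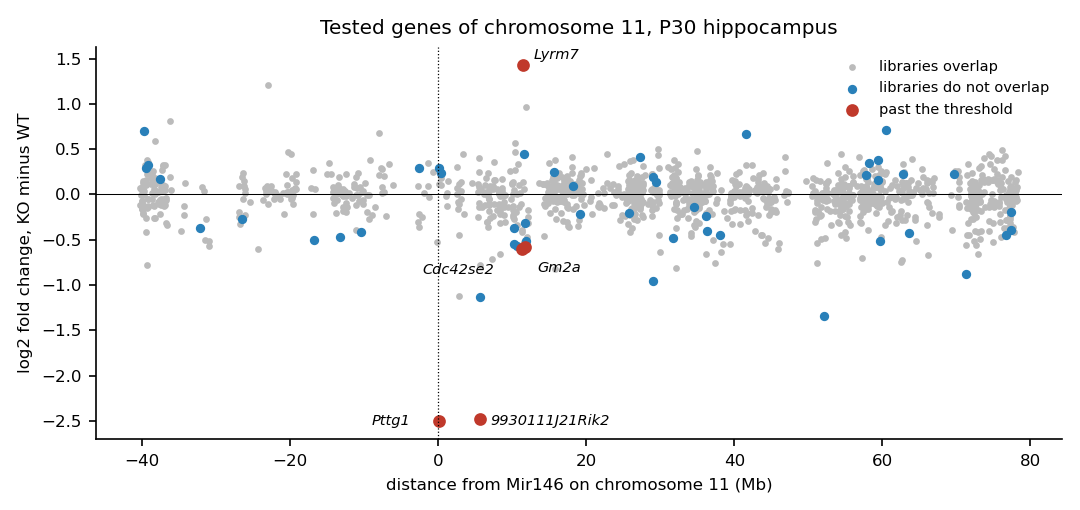
Log2 fold change (KO minus WT, P30 hippocampus) of each tested gene of chromosome 11 against its distance from Mir146 in Mb; red points passed the threshold and blue points are genes whose 4 KO and 4 WT libraries do not overlap. The 5 red points lie between 0.05 and 11.72 Mb on one side of Mir146.

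The targeted gene could not be checked from these libraries. Mir146 had no read in any KO library and 1 read in WT replicate 4, and poly-A libraries do not capture the mature microRNA. The mRNAs best known as its targets did not pass the test. Traf6, the ubiquitin ligase, had 32.1, 35.6, 34.3 and 32.6 in KO, against 30.4, 33.3, 35.3 and 34.2 in WT (log2 fold change 0.02, SE 0.0872, limma adjusted p = 0.971). Irak1, the receptor-associated kinase, averaged 53.0 ± 2.56 in KO, against 49.4 ± 7.62 in WT (log2 fold change 0.11, SE 0.102, limma adjusted p = 0.767). Both ranges overlapped.

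Irak2, a related kinase, averaged 13.7 ± 1.70 in KO, against 15.5 ± 1.63 in WT, and Notch1, the receptor of lateral inhibition, averaged 54.2 ± 2.84 in KO, against 59.6 ± 8.08 in WT. Numb, which antagonises Notch, averaged 30.6 ± 2.58 in KO, against 33.6 ± 5.37 in WT. None of these passed (limma adjusted p from 0.706 to 0.845). Of 20 reported miR-146a targets, 9 were higher and 11 lower in KO, with a median of -0.05, and none had an unadjusted p under 0.05.

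Matches to the seed were searched as AGTTCTC or GTTCTCA, which can overlap in the 8-letter form AGTTCTCA, on the transcript strand of annotated 3′ untranslated regions. Of 14122 tested genes with such a region, 2952 (20.9%) held a match, and their median log2 fold change was 0.0062, against -0.0125 for the 11170 genes without one. Genes with a match also had longer regions, a median of 2513 bases against 975. The region of Gm2a is 3496 bases long, and 42.4% of regions within 20% of that length hold at least 1. The Gm2a match shown lacks the 8-letter form seen in Traf6, and Gm2a was lower in KO.

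Among genes of NF-kB subunits and inhibitors, 7 were higher and 7 lower in KO (median 0.002). Tnip1, an inhibitor that lies on chromosome 11, had 29.4, 29.4, 23.0 and 31.8 in KO, against 20.5, 22.1, 18.6 and 20.4 in WT, without overlap and without passing the test (log2 fold change 0.45, SE 0.115, limma adjusted p = 0.223). The 18 microglial markers had a median of -0.06 (-0.11 without WT replicate 3) with 4 higher and 14 lower, and in none did the difference pass. Siglech, a microglial lectin, averaged 12.2 ± 1.21 in KO, against 14.6 ± 0.966 in WT (limma adjusted p = 0.52). Of 18 interferon-stimulated genes 12 were higher and 6 lower (median 0.10, and 0.23 without WT replicate 3), and Ifit2, an antiviral RNA-binding protein, averaged 3.95 ± 0.679 in KO, against 5.64 ± 0.501 in WT (limma adjusted p = 0.291).

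The next genes by p-value whose libraries did not overlap did not pass the threshold, with limma adjusted p from 0.0601 to 0.108 for the 10 lower and from 0.0739 to 0.169 for the 10 higher ones. Kif3a, Slc36a1 and Slu7, given above, belong to them. Cntn3, a neuronal adhesion protein of the contactin family, had 29.9, 29.2, 29.5 and 30.01 in KO, against 46.8, 38.8, 37.0 and 37.5 in WT (log2 fold change -0.41, SE 0.0797). Cit, the citron kinase of cytokinesis, averaged 60.1 ± 3.72 in KO, against 98.5 ± 29.9 in WT. Cxxc4, an inhibitor of Wnt signalling, averaged 19.3 ± 2.19 in KO, against 31.99 ± 7.198 in WT.

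Dusp26, a protein phosphatase, had 9.43, 8.94, 7.89 and 8.84 in KO, against 9.46, 17.2, 23.1 and 16.8 in WT, so that WT replicate 1 lay just above the KO libraries. Cdh22, a cadherin, averaged 3.31 ± 1.29 in KO, against 6.52 ± 1.03 in WT. Map6d1, of the microtubule-stabilising MAP6 family, averaged 75.2 ± 5.65 in KO, against 97.9 ± 11.9 in WT.

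On the higher side, Paqr9, a membrane receptor of the progestin and adipoQ family, had 188, 177, 176 and 184 in KO, against 168, 137, 110 and 143 in WT (log2 fold change 0.39, SE 0.0808). Mas1, a G protein-coupled receptor of the angiotensin system, averaged 31.6 ± 2.00 in KO, against 20.1 ± 4.09 in WT. Slc15a2, a peptide transporter, averaged 37.9 ± 1.30 in KO, against 25.7 ± 3.14 in WT. Sybu, an adaptor for axonal transport by kinesin, averaged 58.5 ± 0.818 in KO, against 46.5 ± 4.42 in WT. Others were Rbmxl1, BC025920, Ifi203-ps and an entry named Trmt61b that GENCODE types as antisense, with KO means 1.22 to 2.64 times the WT means.

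Genes of the oligodendrocyte lineage were lower in the KO libraries as a group, and none of them passed the test. In bulk tissue, fewer cells of a type and less RNA per cell cannot be told apart. All 12 markers of oligodendrocyte precursors had a lower mean in KO (median log2 fold change -0.38); of all genes tested, 51% had a log2 fold change below 0 and 49% above. Of the 12, 10 had an unadjusted p under 0.05, where 9.56% of all genes tested had one. Olig2, a transcription factor that specifies the lineage, had 38.4, 52.8, 37.7 and 38.7 in KO, against 38.6, 75.1, 93.2 and 59.1 in WT (log2 fold change -0.60, SE 0.18, limma adjusted p = 0.294). WT replicate 1 lay inside the KO range and the other WT libraries above it. Olig1, its relative in differentiation, showed the same order, with 48.9, 57.5, 51.1 and 45.8 in KO and 49.4, 75.2, 103 and 73.3 in WT (log2 fold change -0.51, SE 0.154, limma adjusted p = 0.291).

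Nkx2-2, which promotes the step from precursor to oligodendrocyte, averaged 4.11 ± 2.36 in KO, against 8.28 ± 3.39 in WT (limma adjusted p = 0.294). Pdgfra, the growth factor receptor that marks precursors, was the only one of the 12 whose libraries did not overlap, with 64.0, 61.9, 51.8 and 66.0 in KO, against 69.5, 75.4, 87.6 and 72.2 in WT (log2 fold change -0.32, SE 0.102, limma adjusted p = 0.32). Pdgfra is also on the meningeal fibroblast list, where 11 of 12 genes were lower in KO (median -0.24, and 0.20 without WT replicate 3). Markers of newly formed oligodendrocytes were lower for 6 of 7 (median -0.35, and -0.18 without WT replicate 3 or -0.72 without WT replicate 1). Tcf7l2 is a transcription factor of that stage and is also on the thalamus and habenula list. Its mean was 27.98 ± 6.37 in KO, against 47.0 ± 19.8 in WT, where replicates 2 and 3 had 67.95 and 59.42. Enpp6, a choline phosphodiesterase that marks newly formed oligodendrocytes, averaged 35.7 ± 9.59 in KO, against 67.6 ± 30.3 in WT. Bmp4, a secreted growth factor, averaged 6.01 ± 1.30 in KO, against 10.1 ± 4.44 in WT.

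The 18 myelin genes all had a lower mean in KO (median -0.77), and no KO and WT libraries were separated for any. An unadjusted p under 0.05 was found for 6 of them, where 9.56% of all genes tested had one. Opalin, a membrane protein of myelinating cells, had 15.4, 28.9, 25.0 and 13.3 in KO, against 18.9, 45.2, 60.1 and 35.2 in WT (log2 fold change -0.87, SE 0.334, limma adjusted p = 0.431). Fa2h, which makes the hydroxylated lipids of myelin, averaged 83.2 ± 19.4 in KO, against 156 ± 68.8 in WT. Trf, the iron carrier transferrin, averaged 7.03 ± 1.40 in KO, against 13.2 ± 6.20 in WT, and Plekhb1 averaged 178 ± 42.3 in KO, against 258 ± 80.9 in WT. Of the 14 genes of cholesterol synthesis and uptake, a need of growing myelin, 6 had an unadjusted p under 0.05, beside the 9.56% over all genes. All 14 were likewise lower (median -0.19). Their median was -0.09 without WT replicate 3, whose score of 0.42 was the highest of the 8 libraries, and -0.32 without WT replicate 1. Sqle, squalene epoxidase, averaged 34.5 ± 3.37 in KO, against 42.2 ± 5.40 in WT.

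The WT libraries were not alike in these genes. The score of a list is the median over its members of log2(value + 1) less the gene's mean over the 8 libraries. For precursors it was -0.26, -0.03, -0.29 and -0.24 in KO, against -0.27, 0.37, 0.71 and 0.16 in WT, and for myelin it ran from -0.87 to -0.001 in KO, against -0.63, 0.61, 1.14 and 0.40 in WT. WT replicate 1 thus lay with the KO libraries and WT replicate 3 farthest from them. Without WT replicate 3 the medians were -0.25 for precursors and -0.51 for myelin, and without WT replicate 1 they were -0.57 and -1.09. WT replicate 3 is also the library with the highest choroid plexus genes, whose score was -0.75, -0.69, -1.11 and 1.043 in KO, against -0.86, -0.48, 3.81 and -1.23 in WT. WT replicate 3 likewise scored highest for ependymal (1.28), meningeal fibroblast (1.48), thalamus and habenula (0.76) and striatum genes (0.56). For cortical layer (0.007) and blood genes (-0.14) it did not. On the thalamus and habenula list WT replicate 2 had 0.40, and WT replicates 1 and 4 had -0.29 and -0.48. The KO libraries ran from -0.26 to 0.07 there. The part of other tissue in the lineage values was not tested.

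**Figure D3:**
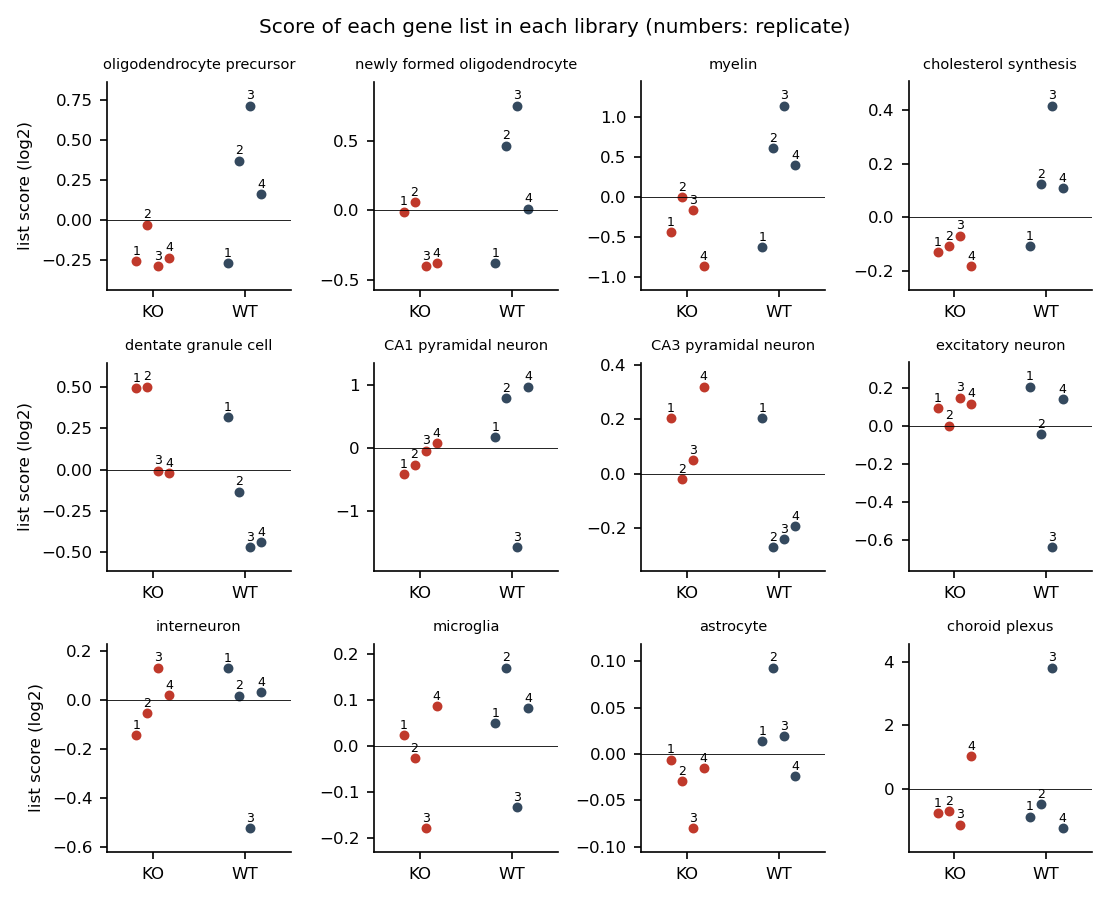
Score of 12 gene lists in each P30 hippocampus library, KO left and WT right, with replicate numbers; each panel has its own axis on the log2 scale, and the line marks 0. WT replicate 3 stands at 3.81 in the choroid plexus panel and lowest in the CA1 and excitatory neuron panels, and WT replicate 1 lies among the KO libraries for oligodendrocyte precursor and myelin genes.

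**Figure D4:**
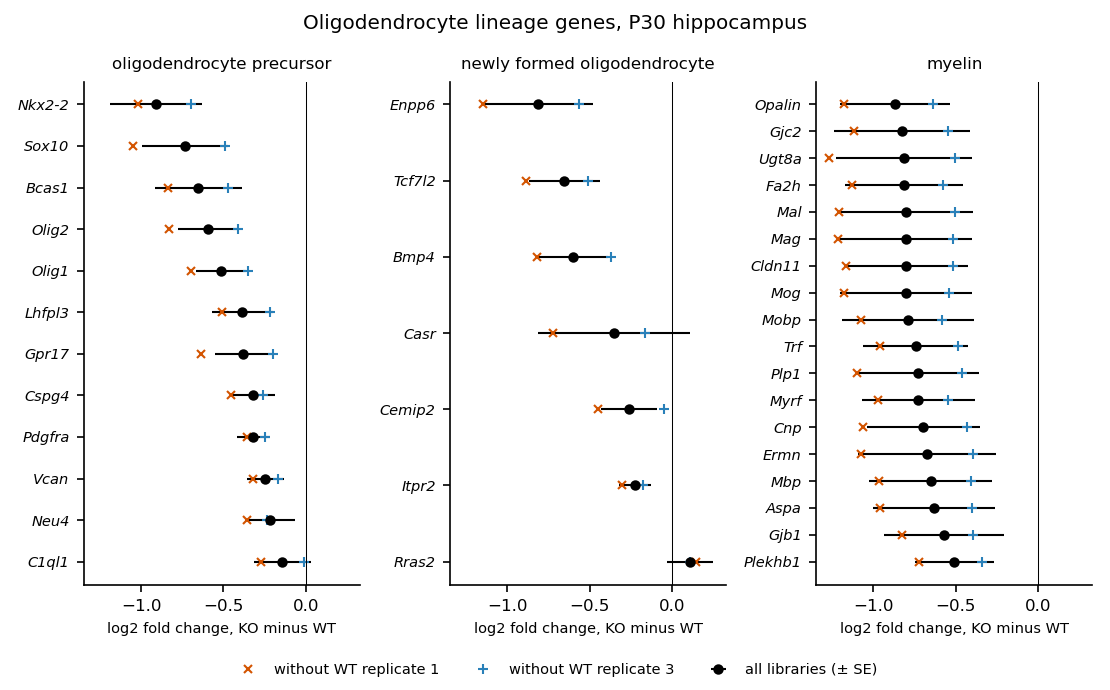
Log2 fold change (KO minus WT, P30 hippocampus) of each tested marker of oligodendrocyte precursors, newly formed oligodendrocytes and myelin, with all libraries (points, ± SE), without WT replicate 1 (crosses) and without WT replicate 3 (plus signs). With all libraries 36 of the 37 points lie below 0, and without WT replicate 3 the points lie nearer 0 than with it, apart from 1.

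Lists of neuronal genes follow by hippocampal field. All 10 dentate granule cell markers had a higher mean in KO (median 0.47), 2 of them with an unadjusted p under 0.05, where 9.56% of all genes had one, and none passed. Prox1, the transcription factor that fixes granule cell identity, had 519, 499, 324 and 302 in KO, against 402, 301, 236 and 238 in WT, and the ranges overlapped (log2 fold change 0.47, SE 0.205, limma adjusted p = 0.485). Plk5, a polo-like kinase relative enriched in these cells, averaged 10.7 ± 2.54 in KO, against 6.34 ± 1.07 in WT, and C1ql2, a secreted synaptic protein of mossy fibres, averaged 48.9 ± 11.98 in KO, against 28.6 ± 10.9 in WT. KO replicates 1 and 2 had the highest scores, 0.49 and 0.50, and KO replicates 3 and 4 lay just below 0. The WT scores were 0.319, -0.132, -0.469 and -0.436, so WT replicate 1 lay above KO replicates 3 and 4.

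Markers of immature granule neurons were higher for 7 of 9 (median 0.15, and 0.35 without WT replicate 3). Sox11, a transcription factor of newborn neurons, averaged 78.6 ± 15.8 in KO, against 61.7 ± 8.65 in WT, and Neurod1, a driver of granule cell differentiation, averaged 62.0 ± 13.8 in KO, against 43.1 ± 16.2 in WT. All 7 tested markers of CA3 pyramidal neurons had a log2 fold change above 0 (median 0.25), and none had an unadjusted p under 0.05. The smallest was 0.006, for a marker whose KO mean of 8.105 lay below its WT mean of 8.905. Of 6 CA2 markers, 1 was higher and 5 lower in KO (median -0.18, and -0.04 without WT replicate 1). The 8 markers of CA1 pyramidal neurons were all lower in KO (median -0.24), with WT scores spread from -1.57 in replicate 3 to 0.97 in replicate 4. Without WT replicate 4 that median was 0.07, and without WT replicate 3 it was -0.70. Man1a, a mannosidase used as a CA1 marker, had 79.0, 81.2, 90.2 and 105 in KO, against 96.2, 161, 163 and 166 in WT (log2 fold change -0.69, SE 0.174, limma adjusted p = 0.233).

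Excitatory neuron genes as a class were higher for 10 of 10 (median 0.24), and without WT replicate 3 the median was 0.05. Camk2a, the kinase of synaptic plasticity, averaged 4795 ± 93.2 in KO, against 4079 ± 759 in WT, where WT replicate 3 had the lowest value of the 8 libraries, 2984. GABA receptor subunits and ionotropic glutamate receptors had medians of 0.10 each, which turned to -0.03 and -0.10 without WT replicate 3. The subunit gene Gabra3 had 11.7, 14.03, 13.4 and 21.6 in KO, against 16.3, 28.6, 26.3 and 41.5 in WT, with WT replicate 1 inside the KO range (log2 fold change -0.81, SE 0.195, limma adjusted p = 0.184). The choroid plexus list was lower in KO for 14 of 14 genes (median -0.73), and its median was 0.44 without WT replicate 3. Kl, the hormone co-receptor klotho, had 22.2, 24.6, 17.8 and 58.3 in KO, against 24.8, 36.3, 340.1 and 22.1 in WT.

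Astrocyte markers had a median of -0.01, 6 higher and 9 lower in KO. Sox9, a transcription factor of astrocytes, averaged 49.3 ± 5.91 in KO, against 65.0 ± 8.77 in WT (log2 fold change -0.39, SE 0.102, limma adjusted p = 0.238). Immediate early genes, which follow recent neuronal activity, had a median of -0.08 with 7 higher and 12 lower, and 0.05 without KO replicate 1. Of the circadian clock genes 6 were higher and 10 lower (median -0.05). Tef, a clock output factor, averaged 183 ± 10.7 in KO, against 158 ± 6.88 in WT, without overlap (limma adjusted p = 0.35).

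The number of genes past the threshold depended on WT replicate 1. Without it 265 genes passed, 195 lower (1.03%) and 70 higher (0.369%) in KO, or 1.4% of those tested, and these included the 6 given above. Without WT replicates 1 and 3 together 65 passed, and without WT replicate 3 alone 12 (0.342% and 0.0632%). Cdk18, a cyclin-dependent kinase, had 13.02, 17.3, 12.7 and 12.03 in KO, against 10.9, 27.8, 33.3 and 24.4 in WT, and passed only without that library (log2 fold change -1.001, SE 0.134, limma adjusted p = 3.49e-04) or without WT replicates 1 and 3. Dusp26, Cit and Paqr9 passed as well (limma adjusted p = 1.18e-04, 8.66e-04 and 0.00113).

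Clstn2, a postsynaptic calsyntenin, averaged 328 ± 9.12 in KO, against 264 ± 62.9 in WT with all libraries, and had a log2 fold change of 0.49 without WT replicate 1 (limma adjusted p = 0.00566). Camkk1, a kinase of calcium signalling, averaged 56.3 ± 3.09 in KO, against 42.6 ± 12.6 in WT, and had 0.61 without that library (limma adjusted p = 0.00772). The unnamed gene models Gm10484 and Gm16564 completed the 6 higher genes with the smallest p. Among the 12 precursor markers 4 passed without WT replicate 1, where 1.4% of all genes tested did: Olig1, Olig2, Sox10 and Gpr17. Of these, Sox10, the factor that activates myelin genes, and Gpr17, a receptor of committed precursors, were named after their values were seen. Without WT replicate 3 none of the 12 passed. The limma adjusted p of the 4 without WT replicate 1 ranged from 0.00319 for Olig2 to 0.016 for Sox10. WT replicate 1 was singled out because leaving it out moved the count of calls most in an earlier account of these same data. It lay with the KO libraries in the precursor genes, so leaving it out widens their difference. These calls have no independent check here.

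The same genes were set beside the other regions and the later age. Pttg1, 9930111J21Rik2 and Lyrm7 passed in the P30 amygdala and frontal cortex as well, with the same direction, among 5 genes (0.0263%) in the amygdala and 3 (0.0158%) in frontal cortex. At an unadjusted p under 0.05 the shares were 9.83% in amygdala and 1.95% in frontal cortex. Pttg1 averaged 0.505 ± 0.198 in KO, against 7.54 ± 0.543 in WT amygdala, and 0.875 ± 0.121 in KO, against 8.79 ± 1.02 in WT frontal cortex. Gm2a passed in the amygdala too, where it averaged 54.3 ± 1.67 in KO, against 73.4 ± 7.18 in WT (log2 fold change -0.42, limma adjusted p = 0.0426), and not in frontal cortex, where it averaged 57.8 ± 2.36 in KO, against 71.05 ± 2.57 in WT. Cdc42se2 and Elfn1 passed in the hippocampus and not in the other P30 regions: Cdc42se2 averaged 84.7 ± 9.31 in KO, against 83.8 ± 8.14 in WT amygdala, and Elfn1 averaged 59.8 ± 5.95 in KO, against 62.3 ± 4.98 in WT amygdala.

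The difference between regions was itself tested and did not pass for any gene with all libraries. Of 18985 genes, 0 passed for the KO effect in hippocampus minus that in amygdala, and 0 for hippocampus minus frontal cortex (limma; 1166, or 6.14%, and 942, or 4.96%, at an unadjusted p under 0.05). For Cdc42se2 the effect in hippocampus minus that in amygdala was -0.62 (limma adjusted p = 0.185), and for Elfn1 it was -0.50 (limma adjusted p = 0.6). Whether a library number marks the same animal in each region is not given in the labels; by Xist and Y-linked genes, all 8 numbers had the same sex in the 3 regions, so the regions may share animals and not be independent. With the number as a random block within genotype, 0 genes passed in either difference (limma; 1292 and 1036 at an unadjusted p under 0.05).

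In the P60 hippocampus, 2 KO and 3 WT libraries in a separately normalised table, 4 of 19256 genes (0.0208%) passed (limma adjusted p under 0.05): Pttg1, 9930111J21Rik2, Cdc42se2 and Lyrm7, all in the direction seen at P30, and 2.04% had an unadjusted p under 0.05. With the 5 hippocampus libraries alone 0 passed (limma; 179 at an unadjusted p under 0.05). The call of Lyrm7 ended when either KO library or WT replicate 2 was left out, and that of Cdc42se2 without KO replicate 2. Cdc42se2 averaged 51.8 ± 3.401 in KO, against 88.7 ± 5.07 in WT (log2 fold change -0.76, SE 0.102, limma adjusted p = 0.00264). The higher gene, Lyrm7, averaged 20.7 ± 1.23 in KO, against 10.4 ± 1.26 in WT (limma adjusted p = 0.0132). Gm2a averaged 43.0 ± 0.941 in KO, against 64.5 ± 4.86 in WT and did not pass (limma adjusted p = 0.0983), nor did Elfn1, which averaged 31.6 ± 10.9 in KO, against 38.1 ± 4.62 in WT.

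Of the 20 further genes, of which 19 were tested at P60, none passed in another region or at P60. The myelin median was -0.52 in the P30 amygdala, below 0 as in the hippocampus, and 0.13 in frontal cortex and 0.26 in the P60 hippocampus, where 16 of 18 genes were higher in KO. The precursor median was -0.30 in the amygdala, 0.04 in frontal cortex and 0.04 at P60, and the dentate granule cell median was -0.24 in the amygdala, -0.06 in frontal cortex and -0.03 at P60. No test between ages was made.

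**Figure D5:**
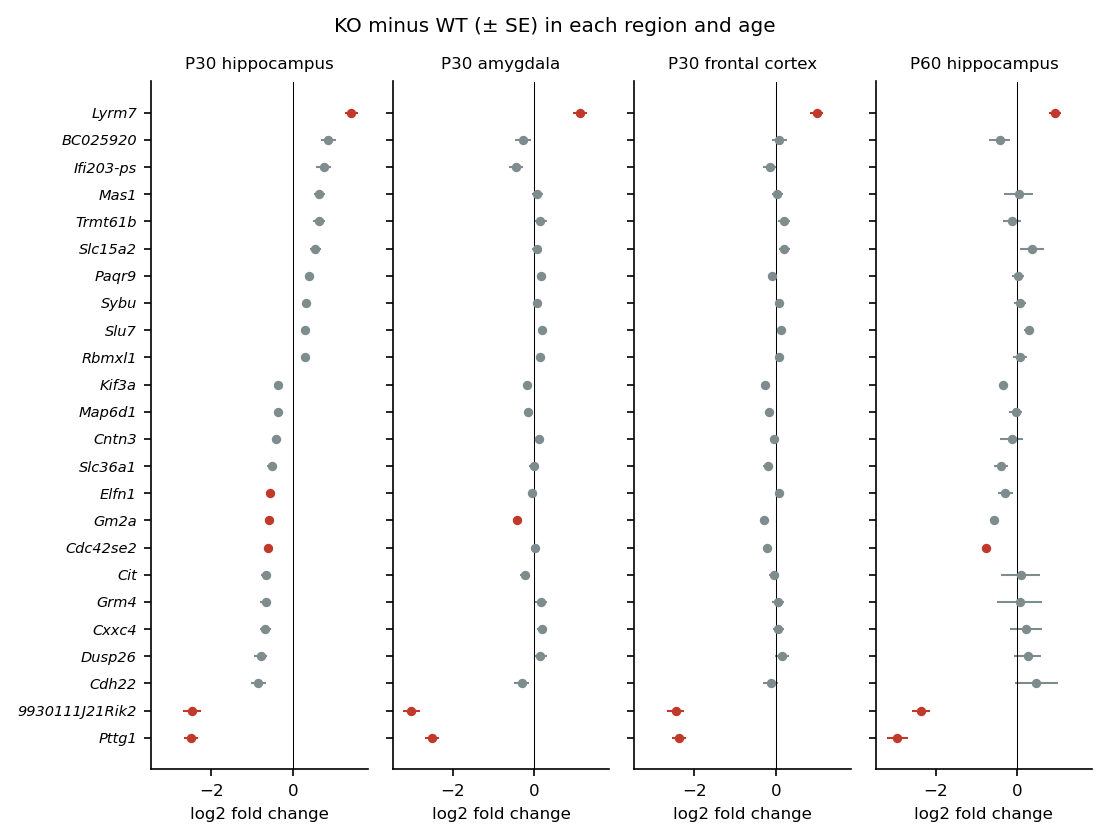
Log2 fold change (KO minus WT, ± SE) of the 6 genes past the threshold and 18 of the 20 further genes, in the P30 hippocampus, amygdala and frontal cortex (4 KO and 4 WT each) and the P60 hippocampus (2 KO and 3 WT); red points passed the threshold and grey points did not. Pttg1, 9930111J21Rik2 and Lyrm7 are red in all panels, and the 18 further genes in none.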

How the data were processed

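RNA of dissected hippocampus was sequenced as poly-A, strand-specific paired-end libraries, per the labels' protocols. The deposited values are normalised read counts per gene; the submitters' processing notes name limma, DESeq, edgeR and mm9 without a role, and the sources used here give no scaling, aligner or annotation. Each library's values were whole multiples of 1 step, within 0.1 read for at least 99.95% of values, which gave the depths; no raw count column was used. A gene was tested if a library of median depth would hold 10 of its reads, in at least as many libraries as the smallest group has, with 15 reads over the table. Because the values are normalised, log2(value + 1) was tested with limma-trend (limma 3.58.1, R 4.3.3) over all 24 P30 libraries as 6 group means, with Benjamini-Hochberg adjustment over 18985 genes and a threshold of 0.05, in place of the count test planned for raw counts; P60 (19 libraries) was fitted apart. The procedure was also run on counts simulated independently for each gene and library. These held no differences of sex or tissue content between libraries of a group, so the simulation does not bear on such differences. Positions and transcripts are GRCm38 (GENCODE M21), which is not mm9, and 48058 of 48526 gene IDs were found there. The design text names sensory cortex and P6 where the labels give frontal cortex and P60; the labels were followed.

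Genes were named by rule: those past the threshold, up to 10 further genes in each direction with the smallest p and no overlap, the 6 in each direction with the smallest p without WT replicate 1, up to 4 members of each list, and genes within 1 Mb of Mir146. The members and the 42 gene lists were chosen with earlier results of these data known. Alternatives were other pseudocounts, filters, scalings and weights, a sex term, a replicate block, the hippocampus libraries alone, and each library left out. Some genes and sequences that these rules name are not reported here.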

Additional observations from a re-analysis of the deposited data

Results flagged for a closer look

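List scores and part of the named genes were checked in the 4 KO and the 4 WT libraries for a library far from the other 3. Of the sets checked, 8 held one, or 5.48%. Chance would give about 1 in 20 if the sets were independent. They come from the same libraries, and several of the 8 lie in WT replicate 3. The share therefore cannot be weighed against that of chance. It does not cover every named gene. Aqp1 and Kl, at 27.15 and 340.06 in WT replicate 3, are not counted among the 8. Cit was 54.59 in KO replicate 1, below the other KO libraries, and Numb was 26.74 in KO replicate 3, the shallowest library. In WT replicate 3 the choroid plexus genes scored 3.81, with a GABA receptor score of -0.447, an ionotropic glutamate receptor score of -0.376 and an interferon-stimulated gene score of 0.286, each apart from the other WT libraries. The CA3 score of WT replicate 1 was 0.203, and the blood score of WT replicate 4 was 0.298, on 3 genes.

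For 2 named genes the KO and WT libraries did not overlap in either region and lay in opposite order in hippocampus and frontal cortex. The KO effect in hippocampus minus that in frontal cortex was 0.488 for Paqr9 and -0.945 for Dusp26 on the log2 scale, and neither passed (limma adjusted p = 0.97 for both).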

How the results depend on the processing

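The count of 6 genes past the threshold in the P30 hippocampus ranged from 5 to 265 when 1 library was left out (265 without WT replicate 1, 12 without WT replicate 3, 11 without KO replicate 4); it was 2 with the 8 hippocampus libraries alone, 25 with library weights and 65 without WT replicates 1 and 3 together. The replicate block gave 12 (0.0632%); the labels do not say that numbers mark shared animals, the correlations of same-numbered hippocampus libraries ran from -0.01 to 0.1, and 3 of 8 libraries correlated best with their own number. Pttg1 and 9930111J21Rik2 passed under each of the 19 alternatives run. Lyrm7, Gm2a and Cdc42se2 lost the call with the 8 libraries alone and under no other, and Elfn1 under 6, among them the replicate block and leaving out WT replicates 1 and 3 together. For the effect in hippocampus minus that in amygdala the count of 0 ranged from 0 to 13 (13 without WT replicate 1, 10 without WT replicate 3) and was 1 with the replicate block; for frontal cortex it ranged from 0 to 5. The P60 count of 4 was 0 with the 5 hippocampus libraries alone. The causes were not tested.

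Signs turned for genes near 0 or led by 1 library, none past the threshold. Leaving out 1 library gave ranges of -0.013 to 0.207 for Ccnjl, -0.132 to 0.301 for Adra1b, -0.025 to 0.045 for Traf6, -0.117 to 0.182 for 9930111J21Rik1, -1.273 to 0.021 for Kl and -1.191 to 0.347 for Aqp1. Ccnjl was -0.058 with a sex term and Adra1b -0.258 with library weights; without WT replicates 1 and 3 together Adra1b was -0.277, Traf6 -0.004 and Aqp1 0.373. Among list medians, immature granule neurons moved to 0.353 with library weights and 0.481 without WT replicates 1 and 3, immediate early genes to 0.148 and NF-kB genes to 0.08 with a sex term. The planned edgeR and DESeq2 fits were not run. Depth limits genes such as Pttg1, with 24 reads over the KO libraries.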
